A study of Homo sapiens with 4 samples.

Results

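HCC1428, an established luminal breast adenocarcinoma cell line, was profiled for the histone mark H3K4me3 in wild-type cells given 2.5 µM of C48, a small-molecule inhibitor of the KDM5 demethylases, or DMSO, the vehicle, and collected on day 5, with 2 CUT&Tag libraries per group. The deposited peak list was merged from 38 libraries of 5 breast cancer lines, so it holds promoters that were called as peaks only elsewhere. The regions described here were chosen by the annotation and the peak calls: peaks annotated as promoter-TSS for which none of the 4 HCC1428 libraries is named among those that called them. There were 5998 such peaks, at 5397 genes, of 14191 promoter-TSS peaks and 110018 peaks in all, and they are called uncalled promoter peaks below. The other 8193 promoter-TSS peaks were called in at least 1 HCC1428 library. The labels call the libraries biological replicates, but no source used here says whether each came from its own culture. The p-values therefore cover the spread among the 4 libraries, which could be technical only. The test takes that spread largely from peaks of like level, so the SE of a peak need not follow its own libraries.

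H3K4me3 marks nucleosomes around active and poised transcription start sites, most strongly at promoters rich in CpG dinucleotides. It is written by the SET1 and MLL methyltransferases and removed by the KDM5 family, which takes methyl groups off lysine 4 of histone H3. In CUT&Tag an antibody brings the transposase Tn5 to the mark, so the DNA around marked nucleosomes is cut and sequenced. A peak caller then asks where the tags stand above their surroundings, and a region it does not call may still hold many tags.

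The 4 sequences that follow show the kinds of region the rule gathers. LOC101927377 and MVP are the uncalled promoter peaks with the largest rise and the third largest rise by the naming rule, CSTA rose and held almost no tags in DMSO, and BET1L was called in every library of the other lines and held almost no tags in HCC1428. Each is the central 200 bases of the peak, read 5′ to 3′ on the plus strand of hg38, with every CpG dinucleotide (the letters CG, the same on both strands) in capitals.
LOC101927377 chr20:47352317-47352516: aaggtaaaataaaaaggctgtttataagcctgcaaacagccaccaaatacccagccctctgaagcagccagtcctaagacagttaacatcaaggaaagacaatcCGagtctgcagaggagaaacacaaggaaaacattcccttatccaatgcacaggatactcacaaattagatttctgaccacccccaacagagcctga
MVP chr16:29820338-29820537: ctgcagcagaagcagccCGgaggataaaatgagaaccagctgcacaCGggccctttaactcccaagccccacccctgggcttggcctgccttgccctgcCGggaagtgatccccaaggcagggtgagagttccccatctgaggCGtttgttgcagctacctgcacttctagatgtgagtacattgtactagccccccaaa
CSTA chr3:122325052-122325251: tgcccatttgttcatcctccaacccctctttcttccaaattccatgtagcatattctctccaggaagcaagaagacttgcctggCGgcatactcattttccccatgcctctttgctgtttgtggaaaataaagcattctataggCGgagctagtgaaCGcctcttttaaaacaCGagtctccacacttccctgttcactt
BET1L chr11:207217-207416: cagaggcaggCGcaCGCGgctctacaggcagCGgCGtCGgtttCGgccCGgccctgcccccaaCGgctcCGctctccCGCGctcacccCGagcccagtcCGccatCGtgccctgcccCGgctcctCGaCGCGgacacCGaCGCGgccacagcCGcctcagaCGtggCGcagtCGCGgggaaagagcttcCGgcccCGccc
The LOC101927377 window holds 1 CpG, the MVP and CSTA windows 4 each and the BET1L window 29. At least 1 CpG was present in 99.3% of the central 200-base windows of all promoter-TSS peaks, 91.8% held at least 4, and 6.72% held at least 29. The median was 9 CpGs in the uncalled promoter peaks, against 18 in the called ones. GENCODE release 44 places a transcription start site of MVP, of CSTA and of BET1L inside its peak, and does not list LOC101927377 by that name.

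Most of the uncalled promoter peaks were not unmarked in HCC1428. Of the 5998, 4769 (79.5%) lay within 2 kb of a peak that HOMER had called in at least 1 HCC1428 library, and 2985 lay within 200 bases of one. These near members held a median of 41.6 tags per 10 M aligned tags after scaling between libraries (scaled tags), and 2103 of them held at least 50. The other 1229, called distant members below, lay farther than 2 kb from any called peak or on a contig without one, and held a median of 0.30 scaled tags. A group marked only in other cell lines therefore describes the distant members, and of these mainly the 952 with fewer than 1 tag per 10 M. Tags were not counted in the other lines here, so a call elsewhere is known only from the name of the library.

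The level fell with distance from a called peak. The median was 49.2 scaled tags under 200 bases, 30.8 from 200 to 500 bases, 24.7 from 500 bases to 1 kb and 6.34 from 1 to 2 kb. Beyond that it was 1.61 from 2 to 5 kb, 0.340 from 5 to 20 kb and 0.20 beyond 20 kb. For scale, 3 tags, the upper limit that a count of 0 allows, are worth 0.339 to 0.514 tags per 10 M in these libraries, so the median distant member was near that limit.

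**Figure D1:**
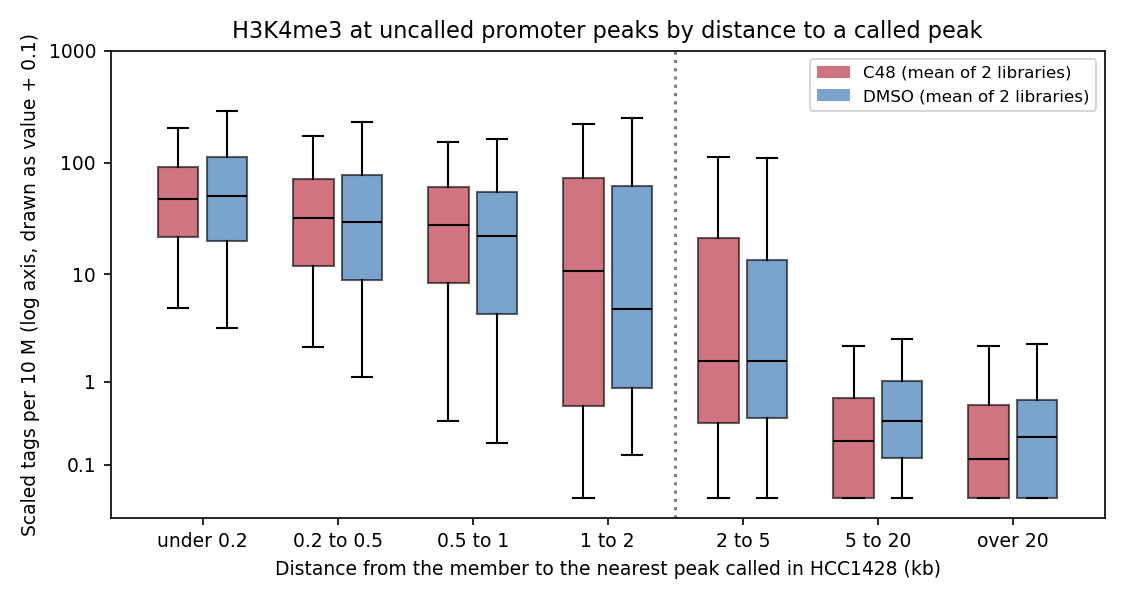
H3K4me3 level (scaled tags per 10 M, log axis) of the uncalled promoter peaks by distance to the nearest peak called in HCC1428, for C48 (red, left of each pair) and DMSO (blue); boxes give quartiles and medians over peaks, whiskers the 5th to 95th percentiles, and the dotted line the 2 kb limit. Median levels fell with distance from 49.2 under 0.2 kb to 0.20 beyond 20 kb.

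The peak calls chose the members, so their levels are given as a description. The median was 27.1 scaled tags in the uncalled promoter peaks, against 230 in the called ones. Just outside the rule, the 655 promoter peaks called in 1 of the 4 libraries held a median of 78.5, those called in 2 libraries 131, those called in 3 libraries 183 and those called in all 4 libraries 268. The ranges overlapped: 1446 uncalled promoter peaks (24.1%) held at least as many tags as the median peak called in 1 library, and 1102 called promoter peaks (13.5%) held fewer than the median uncalled one. The rule also bars a peak that rose or fell far enough to be called in either group, which limits how far the members could differ between C48 and DMSO.

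The other lines differed in how much they contributed. Paths in the peak list name 18 libraries of a ChIP-seq folder, from SKBR3 and BT474 cells, and 16 CUT&Tag libraries of SKBR3, BT474, MCF7 and T47D cells. Of the members, 3904 (65.1%) were called in ChIP-seq libraries only, 850 (14.2%) in CUT&Tag libraries only and 1244 (20.7%) in both. T47D called 1358 of them by CUT&Tag, SKBR3 707, BT474 565 and MCF7 529. Counting the ChIP-seq libraries too, SKBR3 called 4387 and BT474 3984. Distant members were called by both assays more often than near ones, with 30.2% against 18.3%, as a description. Only 28 distant members were called by CUT&Tag in all 4 other lines, and 9 in all 16 of those libraries.

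The marker genes were checked against the luminal label. Of 11 luminal markers, 9 had a peak called in HCC1428 and annotated to them within 1 kb of the start site. The exceptions were GATA3 and KRT18, and a called peak annotated to KRT8 lay 375 bases from the KRT18 member peak. The counts were 3 of 10 for basal and myoepithelial, 5 of 10 for stromal and endothelial and 2 of 8 for blood and immune markers. Their summed level was 4758 and 4952 scaled tags in C48 and 7525 and 7489 in DMSO for the luminal list, and 293 and 283 in C48 and 186 and 160 in DMSO for the basal list. It was 1085 and 1104 in C48 and 1411 and 1430 in DMSO for the stromal and endothelial list, and 273 and 269 in C48 and 273 and 249 in DMSO for the blood and immune list. The libraries held 58.4 and 72.7 M aligned tags in C48 and 88.4 and 64.6 M in DMSO, with 64.0% to 66.3% of tags in the merged peaks.

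The comparison of C48 with DMSO asked whether blocking KDM5 changed H3K4me3 at these promoters. In a limma fit over all peaks with a mean of at least 1 tag per 10 M, 4912 of the 5998 members were tested, and 1105 rose, 1578 fell and 2229 did not pass the test at an adjusted p of 0.05. Of all 65702 peaks tested, 33.6% rose and 24.5% fell, so the members' 22.5% that rose was below that background and their 32.1% that fell above it. Among the called promoter peaks, 19.0% rose and 62.3% fell. The libraries of the groups did not overlap, with both C48 libraries above both DMSO libraries, at 1652 of the tested members (33.6%), and with both C48 libraries below at 2104 (42.8%). The background over all tested peaks was 46.2% for C48 above and 31.6% for C48 below.

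These directions depended on how the libraries were scaled to each other. The paper reports fewer fly spike-in reads in C48 than in DMSO, and holds that C48 peaks are counted too low unless normalized to them. It also reports more H3K4me3 in C48-treated HCC1428 cells by immunoblot, at a later time. In the CUT&Tag data normalized to the fly reads it reports increases at promoters. That normalization was not applied here, so each fall is relative to the scale used and need not be a loss of the mark. The median log2 fold change was -0.06 over the tested members, 0.21 over all peaks and -0.40 over called promoter peaks, with TMM factors that take most peaks as unchanged. On the deposited scale per 10 M aligned tags the same medians were 0.25, 0.50 and -0.07, and with ribosomal protein promoters held constant they were 0.65, 0.86 and 0.36. The members stayed between the other groups on each scale, from 0.21 to 0.28 below all peaks and from 0.30 to 0.34 above the called promoter peaks. Relative to TMM the deposited scale adds 0.33 to the log2 fold change of a peak and the ribosomal scale 0.76, less at the weakest peaks, while DESeq2 size factors take off a little, so how many calls held follows the direction of these shifts. Of the 1105 members that rose 965 did so under all 6 scalings, and of the 1578 that fell 173, while 640 of those that fell rose past the test with ribosomal protein promoters held constant. In the DESeq2 Wald test, which takes its own size factors from all tested peaks, the balance was the opposite. It called 509 of the rises and 1566 of the falls again. Every rise described below kept its direction under all scalings, and each member's fall that did not is named where it is given. Values of the called neighbours are given with TMM factors only, so a fall smaller than these shifts would turn.

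Near members changed differently from the called peak beside them. The median log2 fold change was -0.06 at the 4635 tested near members and -0.59 at their nearest called peaks, of which 4212 were distinct. The member had the higher value in 3795 of the 4635 pairs (81.9%), by a median of 0.47, and in 80.6% to 82.0% of pairs under the other scalings. The member rose while the called peak fell in 711 pairs, and the reverse held in 16. Both fell in 1489 pairs and both rose in 207. These counts depended on the scaling: on the deposited scale the member alone rose against a falling neighbour in 986 pairs, both fell in 694 and both rose in 605, and with ribosomal protein promoters held constant the counts were 443, 76 and 2091. The called neighbours were stronger, with 335 scaled tags at the median against 43.6 for the members, and denser, with 483 against 132 scaled tags per kb.

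**Figure D2:**
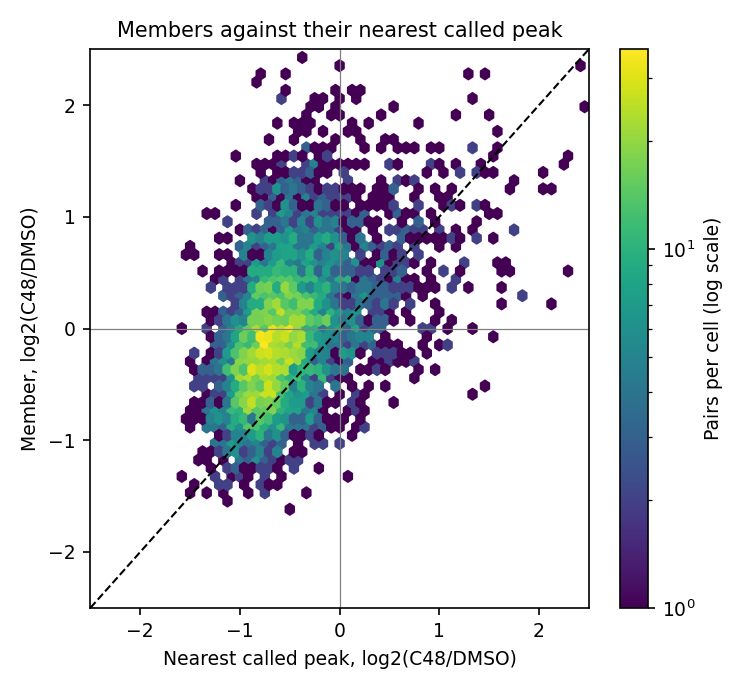
Log2 fold change (C48 over DMSO) of each tested near member (vertical axis) against that of its nearest called peak (horizontal axis), with colour for the number of pairs per cell on a log scale and the dashed line where both are equal; axes stop at 2.5. The cloud lies above the line, with the member higher in 81.9% of 4635 pairs.

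The difference between member and neighbour moved with their relative level. Where the member held under 5% of its neighbour's tags, the median difference was 0.85 (704 pairs), and from 5% to 10% it was 0.62 (1015 pairs). From 10% to 25% it was 0.45 (1783 pairs), from 25% to 50% 0.26 (831 pairs), and where both were within a factor of 2 of each other it was 0.06 (301 pairs). The part of level in this difference was not tested. Of the neighbours, 77.3% were annotated to the same gene, and in those pairs 88.4% of members lay farther upstream, with a median distance from the start site of -397 bases against 179 bases for the neighbour.

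Across all promoter-TSS peaks the direction moved with level too. Members of 5 to 10 scaled tags had a median log2 fold change of 0.34 and those of 200 to 500 scaled tags -0.57, against 0.48 and -0.55 for called promoter peaks of the same levels. Between 20 and 50 scaled tags the medians were 0.02 for 1231 members and 0.37 for 662 called promoter peaks. No test was run on that gap, since the peak calls that separate the groups were made on the same libraries.

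Sequence composition also went with the direction. Members with at least 50% GC and an observed to expected CpG ratio of at least 0.6 numbered 2888 (48.1%), against 82.3% of the called promoter peaks. Of the 2591 tested, 14.3% rose and 47.5% fell, while of the 2315 tested members below either limit 31.7% rose and 15.0% fell. The same contrast stood among called promoter peaks, where 12.8% of the CpG-rich rose and 70.9% fell, against 48.6% and 21.4% of the others. CpG-rich members were also the stronger ones, with a median of 51.8 scaled tags against 27.1 for all members, and the share of each feature was not tested.

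Weaker members with larger changes are given further on. The rises and falls ranked here, 1 peak per gene, are of members at or above the tested members' median level, 40.5 scaled tags. Several of these genes, MVP and FBXL19 among them, had further member peaks that are not described. The largest such rise stood at LOC101927377, an uncharacterised noncoding gene that starts beside ZMYND8 on chromosome 20 (hg38, 47351844 to 47352989). It held 114 and 113 scaled tags in C48, against 4.43 and 5.40 in DMSO. The groups were far apart, and the log2 fold change was 4.28 ± 0.17 (SE, n = 2 per group, limma adjusted p = 7.9e-63). The nearest called peak, 2927 bases away and annotated to ZMYND8, had a log2 fold change of 4.11. Its sequence, printed above, is poor in CpG.

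LOC112543491, a noncoding gene on chromosome 1, came next at these levels, with 67.0 and 74.8 scaled tags in C48 against 13.3 and 16.5 in DMSO. Its log2 fold change was 2.18 ± 0.15 (SE, limma adjusted p = 1.5e-31), while the nearest called peak, at DEDD, had -0.82. MVP encodes the major vault protein, the chief component of the cytoplasmic vault particle. Its start-site peak on chromosome 16 (29820301 to 29820573) held 107 and 101 scaled tags in C48 and 31.9 and 27.7 in DMSO, and lay 3369 bases from any called peak. Both C48 libraries stood above both DMSO libraries, with a log2 fold change of 1.77 ± 0.12 (SE, limma adjusted p = 5.2e-33).

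The other 7 largest rises at these levels had log2 fold changes from 1.49 to 1.66. NDUFAF6, an assembly factor of respiratory complex I, was the strongest of them, with 314 and 305 scaled tags in C48 and 103 and 104 in DMSO. Its member peak lay 38 bases from a called peak of the same gene with a log2 fold change of -0.33. TMEM238 held 183 and 210 scaled tags in C48, against 61.0 and 61.5 in DMSO. Beside it, the called peak at the ribosomal protein gene RPL28 had a log2 fold change of -0.72.

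SLC12A9, a member of the cation-chloride cotransporter family, had uncalled peaks upstream of its start site with log2 fold changes of 1.64 and 1.36. The gene had a further member peak, which is not described. CSRP1, which encodes a LIM-domain protein, held 67.4 and 67.7 scaled tags in C48 against 22 and 20.4 in DMSO within an intron. Here the called neighbour of the same gene had a log2 fold change of 0.78, in the same direction as the member. AGAP11, MIR935 and PRICKLE3, a member of the planar cell polarity family of Prickle genes, had log2 fold changes of 1.64, 1.58 and 1.49.

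**Figure D3:**
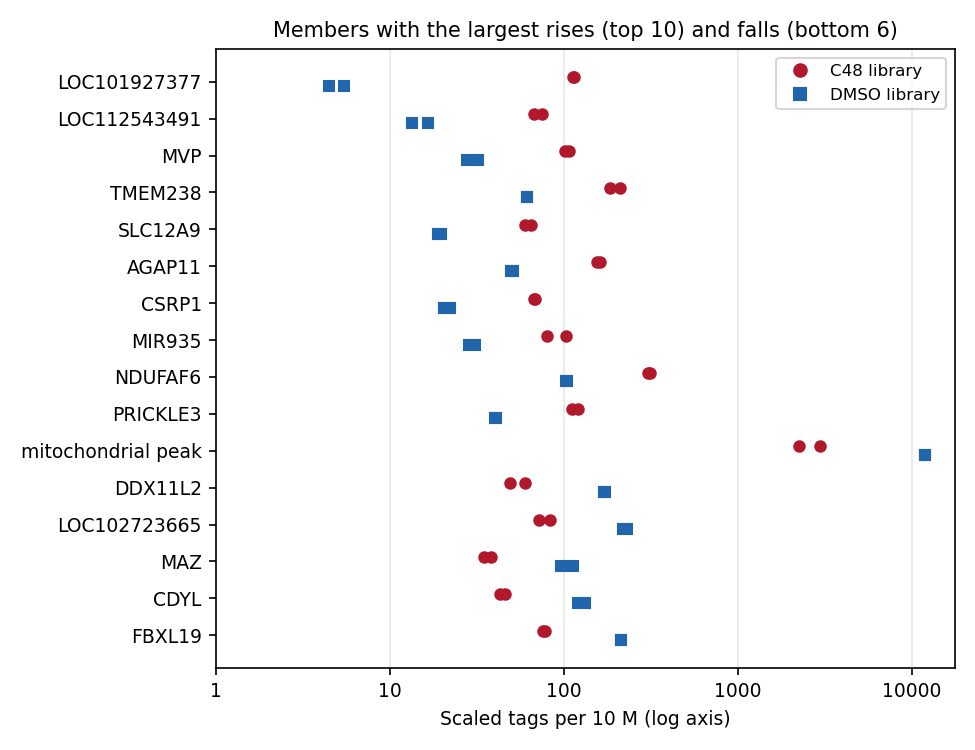
Scaled tags per 10 M (log axis) of each library for the 10 uncalled promoter peaks with the largest rises (upper rows) and the 6 with the largest falls (lower rows), 1 peak per gene, with C48 libraries as red circles and DMSO libraries as blue squares. The groups do not overlap in any row, from 114 and 113 against 4.43 and 5.40 at LOC101927377 to 75.2 and 77.9 against 213 and 213 at FBXL19.

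The largest fall was not at a nuclear promoter. A peak at bases 48 to 332 of the mitochondrial genome, which carries no histones, held 2972 and 2242 scaled tags in C48 and 11861 and 11906 in DMSO. It was the member with the highest level, and its log2 fold change was -2.20 ± 0.03 (SE, limma adjusted p = 1.1e-156). That SE comes largely from peaks of like level, and the C48 libraries lay farther apart than it shows. The fit read this peak like any other, and what these tags come from was not tested.

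The other 5 largest falls at these levels had log2 fold changes from -1.64 to -1.47 and kept their direction under all scalings. DDX11L2, a pseudogene of the DDX11L family, held 48.9 and 59.6 scaled tags in C48, against 172 and 169 in DMSO. This family has near-identical copies near chromosome ends, so its reads may be shared. MAZ, which encodes a zinc finger transcription factor that binds GC-rich promoters, held 34.6 and 38.1 scaled tags in C48 and 112 and 96.4 in DMSO upstream of its start site, with -1.49 ± 0.12 (SE, limma adjusted p = 1.9e-27). The called peak next to it had -0.75.

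CDYL, a chromodomain corepressor, held 42.8 and 46.0 scaled tags in C48 and 131 and 121 in DMSO, 5 bases from a called peak with -1.32. FBXL19, an F-box protein with a zinc finger that binds unmethylated CpG, held 75.2 and 77.9 scaled tags in C48 and 213 and 213 in DMSO across a start site. Both fell together with their neighbours. LOC102723665, a noncoding gene beside LCOR, had a log2 fold change of -1.53.

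After the mitochondrial peak, the 5 members with the highest levels all lay 42 to 554 bases from a called peak. RDH10, a retinol dehydrogenase, held 1002 and 1014 scaled tags in C48 and 1756 and 1760 in DMSO, with a log2 fold change of -0.80. USP9X, a deubiquitinase encoded on the X chromosome, held 542 and 565 scaled tags in C48 and 1251 and 1236 in DMSO, with -1.17. AHNAK, OXR1 and FAM217B had -0.51, -0.62 and -0.27, directions that turned to 0.25, 0.14 and 0.49 with ribosomal protein promoters held constant.

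Gene lists were read as counts of their tested members beside the 33.6% that rose and the 24.5% that fell over all peaks. The lists were chosen with earlier results of these data known, and each list's median log2 fold change stands beside the 0.21 over all peaks. Of all 4912 tested members, 2085 rose and 810 fell on the deposited scale. With ribosomal protein promoters held constant 3501 rose and 173 fell. A list's counts on those scales stand beside these, as shares over all peaks were not counted there. Of 9 tested members of the chemokine and interleukin list, 5 rose and none fell, with a median of 0.45 (1 fell at an unadjusted limma p under 0.05, and none by edgeR). CCL28, a chemokine of mucosal epithelia, held 36.9 and 42.8 scaled tags in C48, against 6.20 and 4.87 in DMSO, across its start site. Its log2 fold change was 2.65 ± 0.22 (SE, limma adjusted p = 1.4e-25), close to the 2.74 of the called peak 184 bases away. IL19, a cytokine of the interleukin-10 family, held 5.62 and 3.08 scaled tags in C48 and 0.504 and 0.169 in DMSO. CXCR4, a chemokine receptor, was far stronger, with 336 and 313 scaled tags in C48 and 266 and 265 in DMSO, and rose by 0.29, or 0.099 with an adjusted p of 0.29 in the DESeq2 Wald test.

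Both interferon lists were read. Of 10 tested members of the study's interferon-stimulated gene list, none rose and 4 fell, with a median of -0.23 (1 rose at an unadjusted limma p under 0.05, and none by edgeR), but with ribosomal protein promoters held constant 9 rose and none fell. Of the 26 called promoter peaks of this list 10 rose and 13 fell with TMM factors. The paper reports increased H3K4me3 at interferon-stimulated genes after spike-in normalization, a different scale and set of peaks. The study chose that list, so it is not independent evidence of a direction. Of 8 tested members of the list of nucleic acid sensors and further interferon-stimulated genes, 3 rose and none fell, with a median of 0.57. For this list, the basal and the stromal lists below, the count that fell was 0 also at an unadjusted limma p under 0.05 and by edgeR, while edgeR called 2, 3 and 3 of their members higher. With ribosomal protein promoters held constant 6 rose and none fell. The 3 were IFI44, IFI44L and IFI16, a DNA sensor, all weak, and IFI16 missed the threshold in edgeR (adjusted p = 0.069). IFI44 held 8.20 and 3.82 scaled tags in C48 and 1.77 and 1.05 in DMSO, with 1.49 ± 0.39 (SE, limma adjusted p = 0.00059). IFI44L held 8 and 25 tags in C48 and 0 and 2 in DMSO, a ratio per aligned tag of 19.3 with a 95% exact interval from 4.93 to 166 for counting error only. Whether both mates of a read pair were counted is not stated for these files, and if so such an interval is too narrow.

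Of 13 member peaks of the basal and myoepithelial list, 8 held under 1 tag per 10 M, and of the 5 tested 4 rose and none fell, with a median of 0.85. CRYAB, a small heat shock protein, rose at both of its member peaks, with 4.41 and 6.65 scaled tags in C48 against 0.381 and 1.22 in DMSO at the one over the start site. CAV1, the caveolae protein, held 194 and 172 scaled tags in C48 and 155 and 153 in DMSO, a log2 fold change of 0.24 that was 0.055 with an adjusted p of 0.69 in the DESeq2 Wald test. Of 5 tested members of the stromal, mesenchymal and endothelial list, 3 rose and none fell, with a median of 0.51. ZEB2, a transcriptional repressor of epithelial genes, held 35.2 and 36.2 scaled tags in C48 and 14.2 and 15.7 in DMSO, and IGFBP3, which binds insulin-like growth factors, had a log2 fold change of 1.36. TP63, the master regulator of basal epithelium, held 0.913 and 0 scaled tags in C48 and 0.638 and 0.349 in DMSO at its member peak, under the level tested, and the EGFR member peak had 0 tags in every library.

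Luminal genes went both ways, with 3 of 8 tested members that rose and 4 that fell and a median of -0.17. With ribosomal protein promoters held constant 4 rose and none fell. ERBB2, the HER2 receptor tyrosine kinase, held 16.9 and 24.3 scaled tags in C48 and 4.94 and 3.49 in DMSO in a stretch 650 bases past its start, with 2.04 ± 0.26 (SE, limma adjusted p = 2.6e-12). The called ERBB2 peak 70 bases away had 0.14. KRT8, a luminal keratin, held 72.8 and 73.5 scaled tags in C48 and 110 and 123 in DMSO at its main start, with -0.66, which turned to 0.094 with ribosomal protein promoters held constant. A second KRT8 peak, in an intron and 908 bases upstream of the annotated start, was called by 13 CUT&Tag libraries of other lines. It held 0.301 and 1.11 scaled tags in C48 and 1.77 and 3.66 in DMSO. Its fall (limma adjusted p = 0.034) missed the threshold in edgeR (adjusted p = 0.055) and in the DESeq2 Wald test (adjusted p = 0.076). With limma on the deposited scale it missed too (adjusted p = 0.074). Further member peaks of KRT8 are not described.

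Members at developmental regulators rose more often than they fell on every scale tried, but the share that rose in the larger list was near that over all peaks. Of 9 tested members in the HOX clusters, 4 rose and 1 fell, with a median of 0.47, and of 47 tested members among other developmental transcription factors, 17 rose (36.2%, against 33.6% over all peaks) and 5 fell, with a median of 0.32. HOXB7 held 115 and 114 scaled tags in C48, against 53.5 and 60.6 in DMSO, and HOXB9 and HOXA13, further members of the clusters that pattern the body axis, had log2 fold changes of 0.86 and 0.82. BHLHE22, a neural basic helix-loop-helix factor, rose by 1.25. LMX1B, a LIM-homeodomain factor, held 120 and 150 scaled tags in C48 and 241 and 221 in DMSO and fell, and TBX2, a T-box repressor, had -0.71, which turned to 0.055 with ribosomal protein promoters held constant.

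Of 32 tested members among ion channels and neurotransmitter receptors, 9 rose and 7 fell, with a median of 0.11, and on the deposited scale 17 rose and 2 fell. ADORA1, the adenosine A1 receptor, held 25.1 and 26.6 scaled tags in C48 and 4.94 and 4.01 in DMSO, with 2.3 ± 0.25 (SE, limma adjusted p = 1.0e-16). Outside this list, ADGRF3, an adhesion G protein-coupled receptor, had member peaks of both directions, with 0.74 upstream and -0.38 downstream of its start, although the second value turned to 0.38 with ribosomal protein promoters held constant.

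Members at genes that every cell uses fell more often than they rose, but not on every scale. All 5 tested members of the housekeeping list fell, with a median of -0.65, among them GAPDH with -0.39 and the complex II subunit SDHA with -0.72, and these turned to 0.36 and 0.040 with ribosomal protein promoters held constant. Of 30 tested members at cytoplasmic ribosomal protein genes, 4 rose and 14 fell, with a median of -0.29, and on the deposited scale 8 rose and 7 fell. RPLP2, a protein of the large subunit stalk, held 90.5 and 93.5 scaled tags in C48 and 192 and 191 in DMSO. Mitochondrial ribosomal protein genes divided evenly, with 7 that rose and 7 that fell of 23 tested and a median of -0.09, but on the deposited scale 11 rose and 3 fell. MRPL10 held 43.4 and 49.4 scaled tags in C48 and 13.7 and 11.8 in DMSO in an intron, with 1.79 ± 0.17 (SE, limma adjusted p = 2.4e-19), next to a called peak with 0.05. Of 163 tested members at ZNF genes, 38 rose and 46 fell, with a median of -0.05, and of 71 at solute carrier genes, 22 rose and 23 fell, with a median of -0.01. On the deposited scale rises outnumbered falls in both families, with 79 against 24 and 33 against 9.

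Germline genes, often silent in somatic cells, contributed 8 member peaks, of which 6 held under 1 tag per 10 M. Both that were tested rose. CTAG2, a cancer/testis antigen on the X chromosome, held 11.8 and 14.4 scaled tags in C48, against 7.10 and 5.40 in DMSO, and the cohesin subunit SMC1B 3.04 and 2.96 in C48, against 1.14 and 0.518 in DMSO.

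The remaining lists were as follows. Of 34 tested members among growth factors and their receptors 14 rose and 7 fell (median 0.20), and of 31 among neuronal and synaptic genes 4 rose and 6 fell (median 0.07). On the deposited scale the neuronal list had 12 rises and 1 fall. Of 540 at noncoding and antisense genes 143 rose and 139 fell (median 0.00), and on the deposited scale 253 rose and 65 fell. Of 14 at G protein-coupled receptor genes 2 rose and 4 fell (median 0.03), of 7 at collagen, laminin and integrin genes 1 rose and 4 fell (median -0.57), and of 7 at keratin, cornified envelope and desmosome genes 2 rose and 1 fell (median -0.15). With ribosomal protein promoters held constant the last 3 had 10, 3 and 4 rises and no fall. Few members were tested elsewhere, with 3 blood and immune markers of which 1 rose, 2 antigen presentation genes of which 1 rose, and 2 olfactory receptor genes of which none passed the test by limma, unadjusted or adjusted, or by edgeR. The antigen presentation gene that rose was CANX, at a peak on a patch contig with 21 and 29 tags in C48 and 2 and 9 in DMSO. It missed the threshold in the DESeq2 Wald test (adjusted p = 0.12). The only clustered protocadherin member was too weak to be tested.

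The 1229 distant members come closest to promoters marked only elsewhere. Of these, 174 had 0 tags in all 4 libraries, 952 (77.5%) had a mean under 1 tag per 10 M, 222 from 1 to 5 and 55 at least 5. Contigs other than chromosomes 1 to 22 and X held 70 of them, most of them alternate or patch contigs whose sequence can also stand on a main chromosome. The sources used here do not say how reads that fit both were treated. Summed over the 952 weakest, the signal was 212 and 198 scaled tags in C48 and 309 and 292 in DMSO, and 239 and 221 against 276 and 260 on the deposited scale. Whether these tags stand above the scatter of tags over the genome was not tested. Of the distant members, 14.6% belonged to a gene that also had a called promoter-TSS peak, at another start or on another contig.

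The 9 distant members called in all 16 CUT&Tag libraries of the other lines were singled out after their values were seen. They were at BET1L, NAV1, OSBPL9, MIR6875, TENT5B, PISD, HIST1H2BB, LOC339803 and NEIL2, and all but NEIL2 were also called in all 18 ChIP-seq libraries. Their mean levels in HCC1428 ran from 0.0627 scaled tags at NEIL2 to 2.65 at OSBPL9. The 4 that were tested had limma adjusted p from 0.12 to 0.66. Whether tags of these 9 starts were placed on other contigs was not tested, so a low level here need not mean an unmarked promoter.

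BET1L, a SNARE protein of the Golgi, had 3 and 0 tags in C48 and 6 and 0 in DMSO at a CpG-rich start site printed above, and the nearest called peak lay 28150 bases away. The 2 other peaks of the table within 10 kb of it were as low, at 0.580 scaled tags or less. NEIL2, a DNA glycosylase of base excision repair, had 0 and 2 tags in C48 and 0 and 0 in DMSO. The nearest called peak on its chromosome lay 19402 bases away and was annotated to FDFT1. A called promoter-TSS peak carries the name of NEIL2 too, and whether it marks another start or a copy on another contig was not tested. LOC339803 had 0 and 0 tags in C48 and 2 and 0 in DMSO. OSBPL9, an oxysterol-binding protein, held 2.13 and 2.59 scaled tags in C48 and 2.41 and 3.49 in DMSO, and the groups overlapped. PISD, which makes phosphatidylethanolamine in mitochondria, held 1.21 and 0.367 scaled tags in C48 and 1.02 and 2.09 in DMSO, with a log2 fold change of -0.52 ± 0.50 (SE, limma adjusted p = 0.37). All 9 starts stayed at 3.49 scaled tags or less in every library.

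Of the 277 distant members that were tested, 36 rose (13.0%), 28 fell (10.1%) and 213 did not pass the test, fewer in either direction than the 33.6% and 24.5% over all peaks. These members were weaker than most tested peaks, and the part of level in the smaller shares was not tested. Of the 36 rises 27 held under all 6 scalings, 31 in the edgeR count test and 15 in the DESeq2 Wald test, and of the 28 falls 9, 26 and 25. The genes named in the rest of this account were chosen after their values were seen, apart from PKP1.

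Of the rises, TERT, the catalytic subunit of telomerase, held 32.7 and 31.7 scaled tags in C48 and 11.8 and 10.5 in DMSO over its start, with 1.46 ± 0.20 (SE, limma adjusted p = 1.2e-11). It lay 2007 bases from a called peak of the same gene, just past the 2 kb limit, and 13 CUT&Tag libraries of other lines called it. EDNRB, the endothelin receptor type B, also had 2 called promoter-TSS peaks, so the gene was not unmarked in HCC1428. Its distant member held 17 and 25 tags in C48 and 0 and 1 in DMSO, 55465 bases from any called peak. The nearest called peak, annotated to EDNRB too, held 29.5 and 31.8 scaled tags in C48 and 20.3 and 26.1 in DMSO. For the distant member the counts were read as a ratio. The ratio per aligned tag was 49.0, with a 95% exact interval from 8.33 to 1982 for counting error only.

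CSTA, the protease inhibitor cystatin A of stratified epithelium, held 21 and 15 tags in C48 and 2 and 1 in DMSO, a ratio of 14 with an interval from 4.43 to 71.1. PKP1, a desmosomal plaque protein, held 3.19 and 2.84 scaled tags in C48 and 1.52 and 0.518 in DMSO, with 1.04 ± 0.45 (SE, limma adjusted p = 0.038), and missed the threshold in edgeR (adjusted p = 0.079) and in the DESeq2 Wald test (adjusted p = 0.23). BMPR1B, a receptor for bone morphogenetic proteins, held 2.73 and 3.08 scaled tags in C48 and 1.52 and 0 in DMSO, and also missed it, with adjusted p of 0.051 in edgeR and 0.51 in DESeq2. At each of these the C48 libraries stood above the DMSO libraries, at levels of a few scaled tags.

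CCDC28B and MIR6787 were stronger distant members that rose, with log2 fold changes of 1.31 and 1.77. ST3GAL4, a sialyltransferase, held 6.22 and 6.78 scaled tags in C48 and 2.53 and 2.79 in DMSO. It was called in all 18 ChIP-seq libraries and 8 CUT&Tag libraries of other lines. The gene also had a called promoter-TSS peak, and the nearest called peak, annotated to ST3GAL4, had -0.65 (limma adjusted p = 0.077).

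Among the falls at nuclear promoters named here, CRNDE, a long noncoding RNA gene active in many tumours, had the highest level, below only the mitochondrial peak described above. It held 219 and 225 scaled tags in C48 and 568 and 565 in DMSO over a start site, with -1.35 ± 0.06 (SE, limma adjusted p = 3.3e-61), while the nearest called peak, 5796 bases away and annotated to the same gene, had 2.01. ACTRT3, an actin-related protein, held 75.8 and 86.8 scaled tags in C48 and 187 and 203 in DMSO. The CRNDE peak held more tags in DMSO than the median called promoter peak, with no call in any HCC1428 library. TMEM82 held 2 and 4 tags in C48 and 31 and 22 in DMSO, a ratio of 0.132 with an interval from 0.0464 to 0.307, and CD300LG held 1.83 and 0.618 scaled tags in C48 and 4.05 and 4.17 in DMSO.

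**Figure D4:**
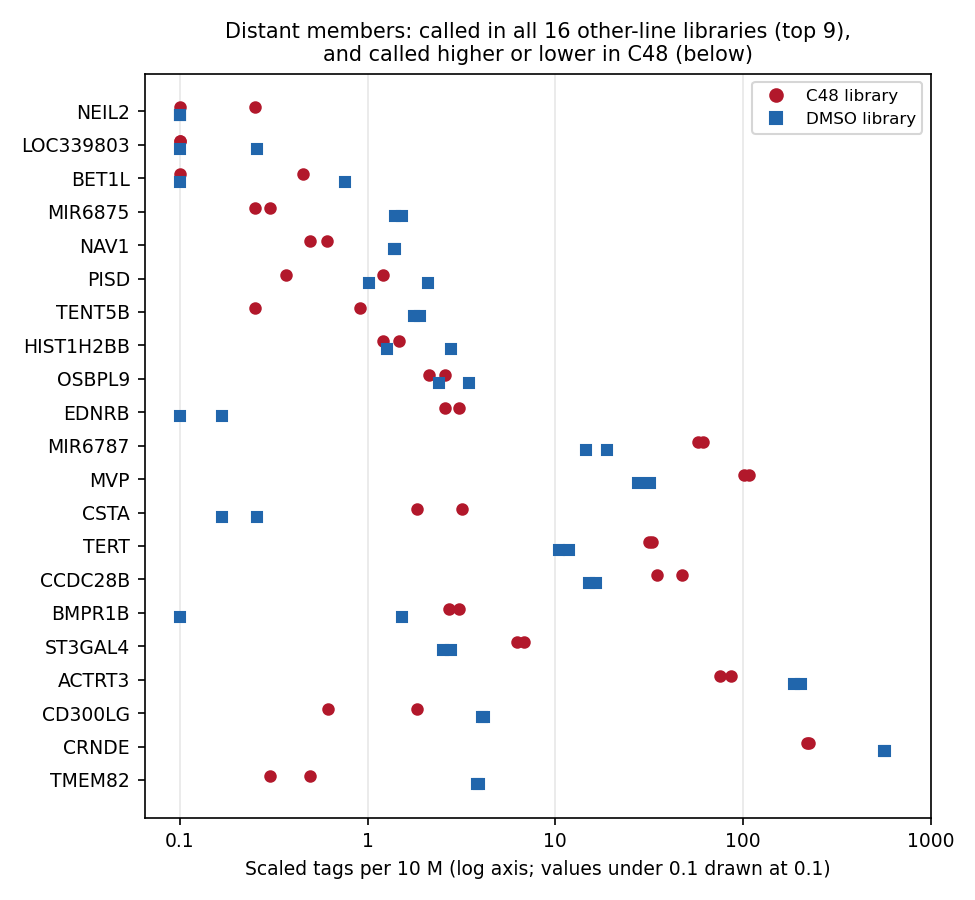
Scaled tags per 10 M (log axis, values under 0.1 drawn at 0.1) of each library at distant members, with C48 libraries as red circles and DMSO libraries as blue squares; the upper 9 rows were called in all 16 CUT&Tag libraries of the other lines and the lower rows rose or fell in C48. The upper rows stay at 3.49 or less in every library, while the lower rows run from 0 at EDNRB in DMSO to 568 at CRNDE in DMSO.

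The members also differed from called promoter peaks in features the rule did not use. Their median distance from the start site was -304 bases, against -8 for called promoter peaks, which places most of them upstream of the site. Near members stood at -343 and distant members at -97, and 43.0% of the distant members lay within 100 bases of the start, against 10.2% of the near ones and 49.8% of the called promoter peaks. Noncoding genes made up 14.4% of the members, 27.6% of the distant ones and 11.4% of the called promoter peaks. Of the 568 tested members at noncoding genes 27.6% rose and 25.4% fell, against 22% and 33.1% of the 4220 tested at protein-coding genes.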

How the data were processed

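H3K4me3 was measured by CUT&Tag in 4 HCC1428 libraries, 2 given C48 and 2 given DMSO. The groups come from the sample titles, and the columns tagged GNE in the peak table are the C48 ones by the sample descriptions. The submitters' processing notes name Bowtie2 2.3.4.1, HOMER, hg38 and the fly build dm6. The sources used here give neither the HOMER version nor the treatment of reads with several fits. The deposited values are a signal, the tags per peak scaled by the authors to 10 M aligned tags. No scaling to a spike-in was applied. Fly spike-in counts were not used here. Peaks had been called in each library and then merged across lines. The deposited repeat table was not used.

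Every value was a whole number of tags within 0.1 tags (100% of values), so tags were recovered. Values were scaled with TMM factors from peaks with a mean of at least 5 (edgeR 4.0.16) and compared by limma-trend on log2(value + 1), with limma 3.58.1 under R 4.3.3, over all 65702 peaks with a mean of at least 1, with Benjamini-Hochberg adjustment. Fold changes on this scale understate those of weak peaks. The test was checked on simulated data. The edgeR quasi-likelihood test on the recovered tags called 1073 members higher and 1571 lower. The Wald test of DESeq2 1.42.0, with its own size factors, was a further alternative. Other alternatives were the scaling, the filter, the pseudocount, a replicate block, each library left out and the membership. Repeat content was not analysed here. Tables and plots used Python 3.11.15, pandas 2.3.3 and matplotlib 3.10.9.

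The members, the 25 gene lists and the tests were chosen with earlier results of these data known. Named genes are, among members past the test with no overlap between groups and a mean of at least the members' median, the 10 largest rises and the 6 largest falls, 1 peak per gene. The 3 or fewer tested members of lowest p per list, the 6 members with the highest level and a fixed set (CXCL10, STING1, TMEM173, KDM5B, OAS2, IFI44, KRT5, KRT14, TP63, VIM, HOXA9, HOXB13, EGFR, CD274, SOX10) complete the rule, of which IFI44, TP63 and EGFR have a member. Not every gene the rule names is described, and 1 is not reported here. Gene symbols are those of the deposited table, with older symbols matched through RefSeq for the lists.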

Additional observations from a re-analysis of the deposited data

How the results depend on the processing

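The counts of members that rose and fell were 1105 and 1578, with a median log2 fold change of -0.06. They depended on the scaling. Per 10 M aligned tags as deposited they were 2085 and 810 with a median of 0.25, on the column total 2221 and 737 with 0.29, and on ribosomal protein promoters 3501 and 173 with 0.65. Without a filter on low values 566 rose, and the DESeq2 Wald test called 509 higher with a median of -0.25. The Wald test takes its own size factors, so its values differ in scaling as well as in the test. Beyond that, the cause of these last shifts was not tested. Distant members alone gave 36 (13.0%) and 28 (10.1%) of 277 tested, smaller shares than the 22.5% and 32.1% of all tested members. Members with C48 libraries above the DMSO libraries numbered 1751 of all 5998 (29.2%, against 31.2% of all 110018 peaks). On the deposited scale they numbered 2873, with no share over all peaks to set beside it. Leaving out 1 library, where the lone library of a group is assumed to vary like the others, gave 791 to 1084 rises, 1233 to 1542 falls and medians from -0.10 to -0.02. The deviations of replicate 1 from the group mean had a correlation of -0.03 between C48 and DMSO over 43712 peaks. With 2 pairs this cannot show whether the samples were paired. A replicate block gave 1079 rises and 1550 falls. With the other alternatives the counts stayed within a factor of 1.5, and the median was -0.12 with DESeq2 size factors.

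Of the 68 named peaks followed through the alternatives, 7 changed direction with ribosomal protein promoters held constant, to 0.25 at AHNAK, 0.36 at GAPDH, 0.094 at KRT8, 0.040 at SDHA, 0.14 at OXR1, 0.38 at ADGRF3 and 0.055 at TBX2. FAM217B changed to 0.49 there, to 0.061 per 10 M aligned tags and to 0.10 on the column total. Among all 111 named peaks that passed the test, 20 changed direction on the ribosomal scale, 6 were lost in edgeR and 23 in the DESeq2 Wald test, CTAG2, SMC1B, HOXA13 and ST3GAL4 among these 23. Of 1069 values of the 68 peaks, these 10 were reversed, 66 kept their direction but missed the threshold, and the cause was not tested.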
